A study of Mus musculus with 4 samples.

Results

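The strongest binding positions of the homeodomain transcription factor NKX2.2 in alphaTC6 cells are described here. AlphaTC6 is a mouse cell line of pancreatic alpha cells, the islet cells that secrete glucagon. Its genotype is given as wild type, which does not describe how the line was made. Being a cell line, it stands for alpha cells only as far as it keeps their state. Chromatin immunoprecipitation with an anti-NKX2.2 antibody and sequencing (ChIP-seq) was done on 2 samples, and 2 input samples, DNA taken without enrichment, served as the control. The authors reduced them to a single list of peak summits, the base of highest enrichment in each peak, and gave every summit a score, the −log10 of its MACS2 q-value. The members were chosen by that score: all summits of 100 or more on the 19 autosomes and the X chromosome. They numbered 375 of 7380 placed summits, or 5.08%. A further summit of that strength, with a score of 109.8, lay on a contig outside the assembled chromosomes and was left out. The list gives no value per library, so depth and replicate spread are unknown, and intervals below are 95% Wilson intervals that cover counting error only.

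NKX2.2 belongs to the NK2 family of homeodomain proteins and is needed for the formation and upkeep of several islet endocrine cell types. It both activates and represses genes, the latter through Groucho corepressors, and it holds beta cell and alpha cell programmes apart. NK2 proteins recognise a short core that ends in AGTG. Other factors at regulatory DNA of endocrine cells include the RFX winged-helix proteins, which bind the X-box, a pair of arms facing each other, and which also drive genes of the cilium.

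The DNA under the summits could be read at gene starts, where RefSeq promoter windows of the GRCm38.p6 assembly were at hand, each of 300 bases with 250 before the start. A strong summit lay in such a window at 46 places, 39 of them at protein-coding genes. Capitals in the stretches below mark 2 kinds of match on either strand, the NK2 cores GAGTG or AAGTG and the X-box arm GTTGCC. Each stretch is 61 bases long, centred on the summit, reads 5′ to 3′ along its gene and lies outside every annotated gene. Of 16 such stretches, 6 held an X-box arm and are shown so that its place beside the summit can be seen:
Pdcd6 (chr13:74317333-74317393, minus strand): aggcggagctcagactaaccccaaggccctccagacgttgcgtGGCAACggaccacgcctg
Ift57 (chr16:49699191-49699251, plus strand): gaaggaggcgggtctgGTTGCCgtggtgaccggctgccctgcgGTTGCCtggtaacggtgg
Fam98b (chr2:117249646-117249706, plus strand): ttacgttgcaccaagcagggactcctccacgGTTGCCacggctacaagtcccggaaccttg
Nicn1 (chr9:108290261-108290321, plus strand): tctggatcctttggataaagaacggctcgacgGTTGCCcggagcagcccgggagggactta
Rae1 (chr2:172999962-173000022, plus strand): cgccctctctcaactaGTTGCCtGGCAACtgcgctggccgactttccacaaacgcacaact
Gm40716 (chr10:80475405-80475465, minus strand): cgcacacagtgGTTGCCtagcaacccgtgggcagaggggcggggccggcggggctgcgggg

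Another 5 held the GAGTG form of the NK2 core and are shown for the same reason:
Xab2 (chr8:3621384-3621444, minus strand): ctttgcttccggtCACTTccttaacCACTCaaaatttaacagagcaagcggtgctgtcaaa
Rnf13 (chr3:57735892-57735952, plus strand): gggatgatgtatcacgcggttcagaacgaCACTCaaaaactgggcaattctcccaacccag
Psmd4 (chr3:95042726-95042786, minus strand): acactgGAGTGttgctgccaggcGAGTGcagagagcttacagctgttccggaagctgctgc
Gm38250 (chr8:105566106-105566166, plus strand): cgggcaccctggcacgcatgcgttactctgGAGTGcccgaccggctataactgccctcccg
Sdhaf1 (chr7:30322507-30322567, minus strand): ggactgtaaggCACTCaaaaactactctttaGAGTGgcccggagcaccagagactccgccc

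At Rps21 the only match was an AAGTG core, and 4 stretches held none of these letters. Of those 4, 3 held the looser arm GTTGCNA, which 10 of 33 strong and 71 of 933 other stretches of 101 bases held. That looser arm was not among the motifs planned beforehand, and these counts include the stretches shown here. The highest of the 4, which holds that looser arm, is shown for contrast:
Senp2 (chr16:22009316-22009376, plus strand): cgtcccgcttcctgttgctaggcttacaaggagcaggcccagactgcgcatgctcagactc

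Within 50 bp of a strong summit, 20 of the 46 windows held the G form of the NK2 core and 14 the X-box arm GTTGCC. In the 1299 windows with other summits, 549 held the G form that close, a similar share, and 112 the arm. The full 50 bp on either side could be read in 33 of the 46 and 933 of the 1299, so matches could be missed in the rest. Ift57, a component of the intraflagellar transport particle of cilia, had arms on both sides of its summit (score 306.4). Rae1, an mRNA export factor, had 2 arms facing each other (score 141.1). At Sdhaf1, an assembly factor of mitochondrial complex II with a score of 100.5, GAGTG was centred 3 bases from the summit. In the 46 windows the nearest GAGTG match was centred within 10 bp of the summit in 14 (30.4%, interval 19.1% to 44.8%), with a median distance of 7 bp over the 27 windows that held one. The nearest AAGTG was that close in 1 window, with a median of 56 bp over 21 windows. In the 1299 windows with other summits, GAGTG was within 10 bp in 263 (20.25%, interval 18.15% to 22.5%), with a median of 28 bp. The GTTGCC arm was within 10 bp in 6 of 46 windows with a strong summit (13.0%, interval 6.12% to 25.7%) and in 34 of 1299 with other summits (2.62%, interval 1.88% to 3.635%). Within 50 bp, as far as the windows could be read, 17 of the 46 had GAGTG alone, 11 had GTTGCC alone, 3 had both and 15 had neither. This split was not made for the other summits.

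Shares of whole windows show the same letters against all promoters. The longer arm GTTGCCA was found in 9 of 46 windows with a strong summit (19.6%, interval 10.65% to 33.2%). It was found in 81 of 1299 windows with other summits (6.24%, interval 5.045% to 7.68%) and in 4.41% of all 32619 windows. GAGTG was found in 58.7% of the windows with a strong summit, 65.7% of those with other summits and 47.2% of all windows. In the 13 windows with a score of 200 or more, 5 held GTTGCCA (38.5%) and 4 held GAGTG (30.8%). The GAGTG figure is lower than in all windows and the GTTGCCA figure higher, but 13 windows are too few to rank either. AAGTG was found in 45.65%, 44.6% and 46.3%, and its longer form TNAAGTG in 8.70%, 9.315% and 11.6%. These shares were not tested, and GAGTG and GTTGCC were searched only after the sequences had been seen. TNGAGTG and GTTGCNA were likewise not among the motifs planned beforehand. The median GC content was 58.7% in the windows with a strong summit, 61.3% with other summits and 53.0% in all windows, and its part in the shares was not tested.

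A whole stretch of 101 bases around the summit was available for 33 strong and 933 other summits. Of these, 10 (30.3%, interval 17.4% to 47.3%) and 80 (8.57%, interval 6.94% to 10.55%) held GTTGCC, against 4.20% of all windows read at a fixed place before the start. Among summits with a score under 10 the share was 5.37%, from 10 to 30 it was 10.1%, and from 30 to 100 it was 11.1%. GAGTG had no such order, at 34.3%, 46.3% and 52.9% over the same steps and 36.4% at the strong summits. The ETS core CCGGAAG was in 21.2% of strong, 10.5% of other and 2.56% of all stretches, with overlapping intervals for strong and other summits. The GC box CCGCCC, a KLF and SP site, was in 27.3% of strong, 44.7% of other and 19.2% of all stretches. The NFY core CCAAT was in 21.2%, 30.1% and 18.3%. The forkhead core TGTTTAC was in 3 of 33 strong stretches and 8 of 933 others. The CTCF core AGGGGGC and the homeodomain core TAATTA were in 0 of 33, which allows a share of up to 9.09% when set at 3 counts (Wilson bound 10.4%), against 7.07% and 0 of 933 (Wilson bound 0.41%) of the others. Of the remaining motifs searched, TNGAGTG was in 27.3% of strong and 17.15% of other stretches, and TNAAGTG in 0 of 33 and 3.54%. The rest were the KLF box CACCC at 24.2% of strong and 27.55% of other stretches, the E-box CAGATG at 3.03% and 4.72%, the AP-1 site TGANTCA at 1 of 33 and 14 of 933, and the MAF site TGCTGAC at 1 of 33 and 10 of 933.

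**Figure D1:**
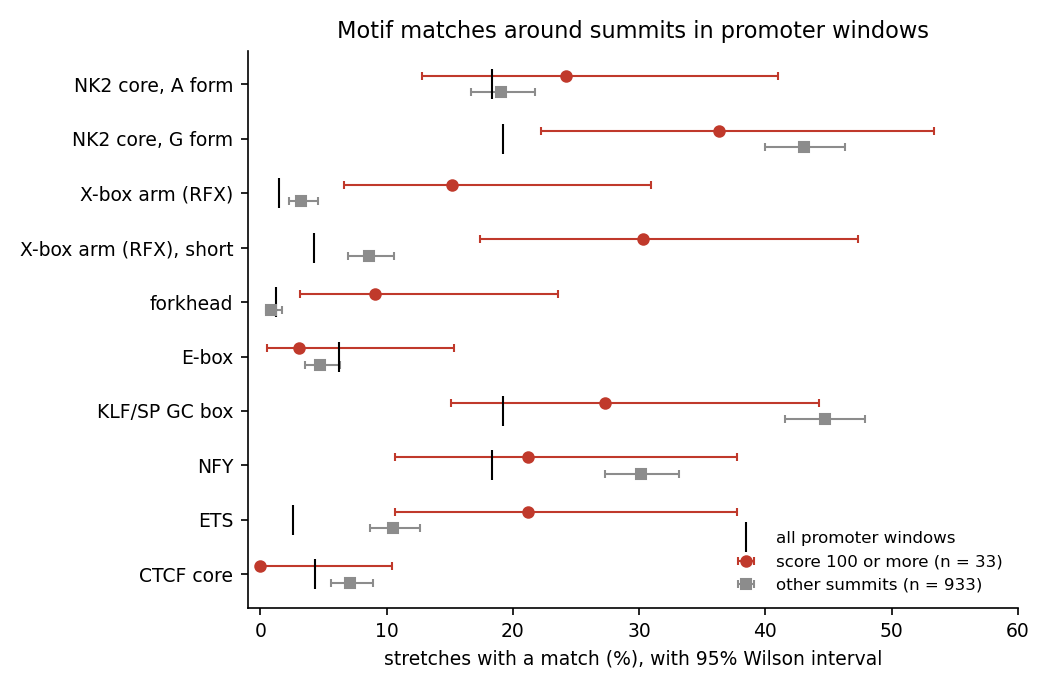
Share of stretches with a match, each the summit and 50 bases on either side (horizontal axis, percent) for 10 motifs, named on the vertical axis, with 95% Wilson intervals. Red circles are 33 summits with a score of 100 or more, grey squares 933 other summits, and black ticks all promoter windows at a fixed place. The short X-box arm sits at 30.3% in red and 8.57% in grey.

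Scores among the strong summits ran from 100.5 to 1648, with a median of 175.6 and the middle 50% between 122.6 and 270.7. A score of 200 was reached by 146 of them, 500 by 29 and 1000 by 5. The last inside the limit were at Ago2, which encodes an Argonaute protein (100.7), Slc38a5, an amino acid transporter gene (100.5), and Sdhaf1 (100.5). Just outside it were summits nearest to Aldh8a1 (99.85), Trim62 (99.55) and Ppp1cb (99.5), so no gap separates members from the rest. By location, the median score was 163.1 near gene boundaries, 181.7 inside genes, 165.3 outside genes up to 50 kb and 192.3 beyond.

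**Figure D2:**
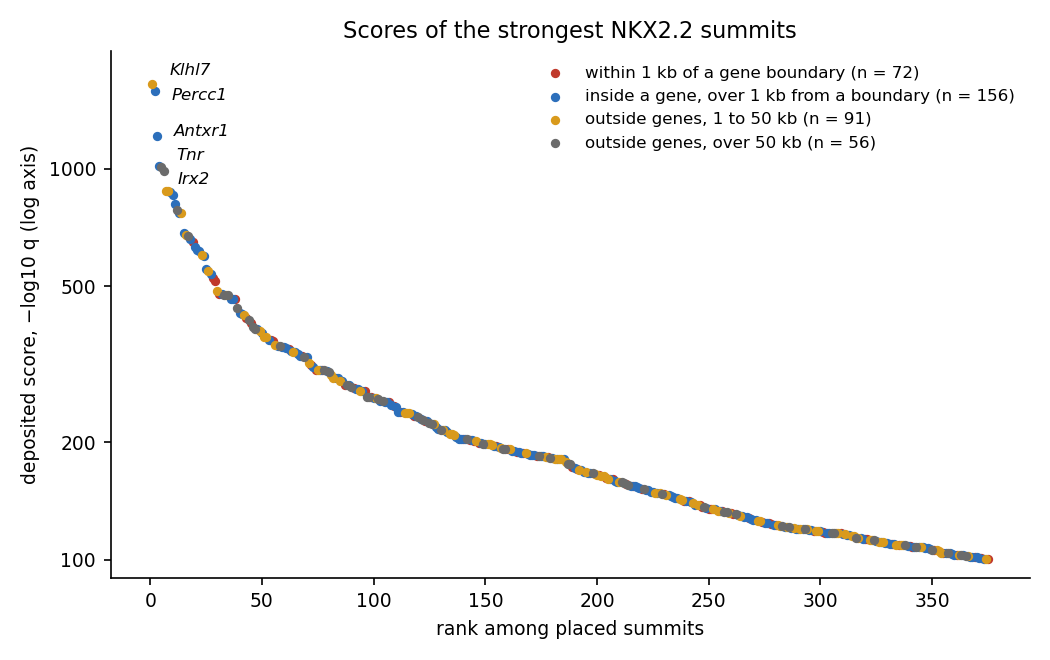
Deposited score, −log10 q (vertical axis, log scale), of the 375 strong summits against their rank (horizontal axis), coloured by location relative to protein-coding genes. The 5 highest, labelled with their nearest gene, stand above 1000, and the first summit near a boundary is Bbs2, with 649.0.

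The 25 highest summits lay mostly inside genes or away from them. Of these, 14 were inside a protein-coding gene over 1 kb from any boundary, 6 were outside coding genes up to 50 kb away, 4 were further out and 1 was within 1 kb of a boundary. The highest (chromosome 5, position 24078994, score 1648) lay 21.6 kb from Klhl7, an adaptor of a ubiquitin ligase. The second (chromosome 17, position 25175790, score 1575) lay inside Percc1, a gene needed for enteroendocrine cells of the gut. Antxr1, an anthrax toxin receptor (chromosome 6, 87277636, score 1214), and Tnr, which encodes the matrix protein tenascin R (chromosome 1, 159729467, score 1015), held the third and the fourth. The fifth (chromosome 13, 72448719, score 1009) had Irx2 as its nearest coding gene, at 175.7 kb.

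Next came a summit 155.6 kb from the actin-like gene Actbl2 (chromosome 13, 111099381, score 988.5) and one 12.4 kb from Higd1a, a mitochondrial gene of the hypoxia response (chromosome 9, 121870162, score 877.9). Sox18, a SOX-family transcription factor gene, lay 3.94 kb from a summit at 181675580 of chromosome 2 (score 875.6). Reep1, which shapes the endoplasmic reticulum, held one at 71728550 of chromosome 6 (score 869.7), and Tmem171 one at 98688153 of chromosome 13 (score 855.4). Med20, a Mediator subunit gene, held a summit of 813.5 and the ubiquitin ligase adaptor gene Klhl3 one of 770.0. The latter was 193 bp downstream of an annotated Klhl3 start.

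A summit of 785.0 lay 107.8 kb from the collagen gene Col1a2, while the histone demethylase gene Kdm7a had one of 769.5 at 36.5 kb and Phf14 one of 677.9 at 17.6 kb. Rybp, a Polycomb subunit gene, had one of 670.6 at 100.5 kb, and a summit of 629.7 lay inside Nfic, of the nuclear factor I family. Rell1 (684.0), Flvcr2 (660.7), the sphingosine-1-phosphate phosphatase gene Sgpp2 (619.7), R3hdm2 (615.0), the phospholipase gene Plb1 (598.2) and the potassium channel subunit gene Kcne2 (552.6) each held one. Ldha, the lactate dehydrogenase gene kept low in beta cells, had a summit of 601.5 at 6.805 kb. Bbs2, which encodes a subunit of the BBSome of cilia, was the only one of the 25 near a boundary, with a score of 649.0 and a summit 71 bp downstream of an annotated start.

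Strong summits lay near gene boundaries less often than other summits did. A boundary, the annotated start or end of a coding gene's body, was within 1 kb of 72 of 375 strong summits (19.2%, interval 15.5% to 23.5%) and of 2083 of 7005 others (29.7%, interval 28.7% to 30.8%). The difference of -10.5 percentage points had an adjusted p of 3.33e-05 (2-sided Fisher's exact test, Benjamini-Hochberg adjusted over 5 comparisons). Outside coding genes at 1 to 50 kb lay 91 strong summits (24.3%, interval 20.2% to 28.85%) and 1318 others (18.8%, interval 17.9% to 19.75%), with an adjusted p of 0.0259 by the same exact test. That call was lost with a score minimum of 200 (adjusted p = 0.523, exact test), with a boundary distance of 500 bp (adjusted p = 0.0901, exact test) and against other summits of score 10 or more (adjusted p = 0.110, exact test).

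Inside genes, over 1 kb from a boundary, lay 156 strong summits (41.6%, interval 36.7% to 46.65%) and 39.2% of the others (adjusted p = 0.357, exact test). Some of these were at an annotated start within the gene body, as at Taok2 (21 bp) and Ccdc12 (33 bp). Over 50 kb from any protein-coding gene lay 56 (14.9%, interval 11.7% to 18.9%) and 12.2% of the others (adjusted p = 0.209, exact test), which passed with a score minimum of 50 (15.4% against 11.9%, adjusted p = 0.0113, exact test). With pseudogenes and noncoding genes counted as well, 3.73% of strong and 2.655% of other summits lay that far from a gene (adjusted p = 0.249, exact test). The summit nearest to Col1a2 among coding genes, for example, lay inside the lncRNA gene Gm46948. Summits are not replicates of the experiment, so these tests describe this list. Exons, introns and UTRs were not distinguished.

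**Figure D3:**
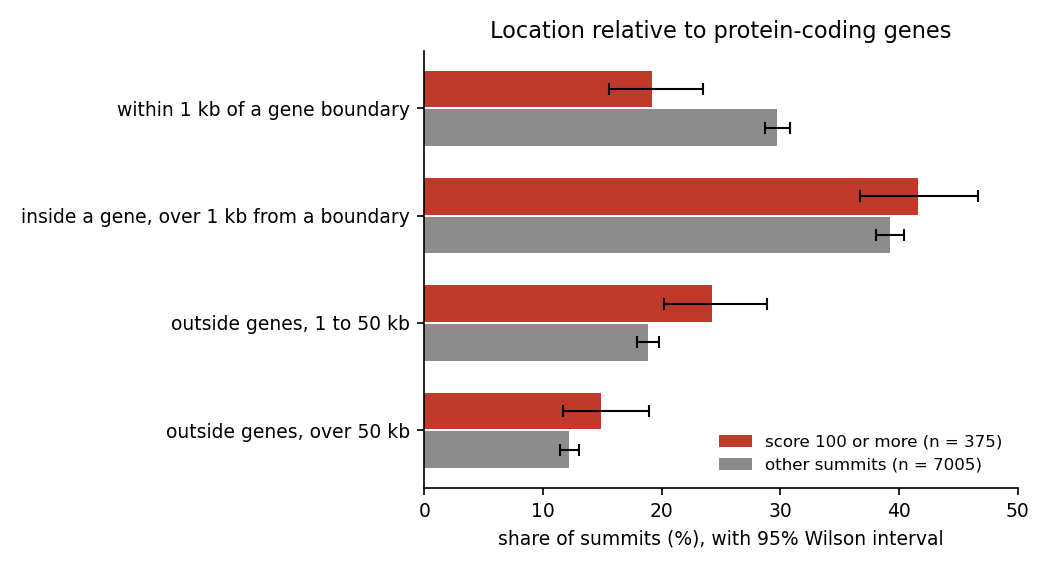
Share of summits (horizontal axis, percent) in 4 classes of location relative to protein-coding genes, for 375 strong summits (red) and 7005 others (grey), with 95% Wilson intervals. The intervals lie apart within 1 kb of a boundary, at 19.2% and 29.7%, and by a small margin outside genes at 1 to 50 kb, and overlap in the other classes.

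The boundary summits were mostly at gene starts, among strong and other summits alike. Annotated starts are here those of the promoter windows, not the ends of gene bodies. Of the 72, 57 were also within 1 kb of an annotated start, 7 belonged to a gene with annotated starts but had none within 1 kb, and 8 belonged to a gene without a start in the table. The same groups held 1615, 137 and 288 of the other summits on chromosomes with annotated starts. On the chromosomes with annotated starts, 69 of 367 strong summits lay within 1 kb of one (18.8%, interval 15.1% to 23.1%), against 27.25% of 6801 others (interval 26.2% to 28.3%). Not all of these 69 were in the boundary class, since an annotated start can lie inside a gene body, over 1 kb from its ends. Of those 69, 46 were upstream, as were 1222 of the 1853 others within 1 kb of a start. Within 100 bp of a start lay 31 strong summits (8.45%) and 897 others (13.2%). In the promoter windows the median strong summit lay 59 bases upstream of the start (-59), and the median other summit 64 (-64).

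The highest summits in the boundary class after Bbs2 were at Capn9, a calpain protease gene (524.7), at the facing ends of Cnga4, a cyclic nucleotide channel subunit gene, and Fam160a2 (515.1), at 1700010B08Rik (478.0) and at Mfn1, a mitochondrial fusion gene (463.1, with the summit 61 bp downstream of a start). For Capn9, Cnga4 and 1700010B08Rik the promoter windows gave no start within 1 kb. The body of Cnga4, on the plus strand, nonetheless begins at 105400024 of chromosome 7, with the summit at 105400158.

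**Figure D4:**
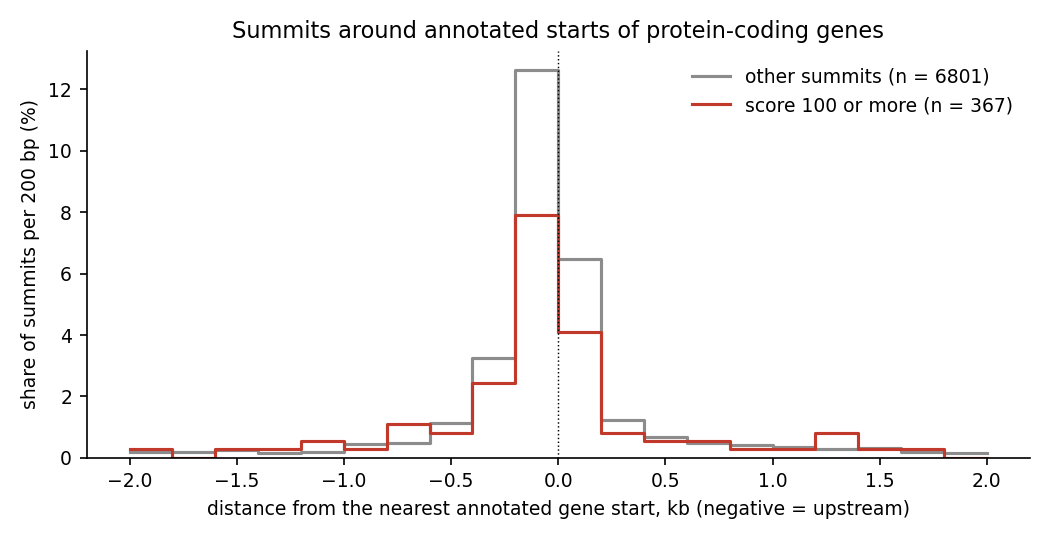
Share of summits per 200 bp (vertical axis, percent) by distance from the nearest annotated start of a protein-coding gene (horizontal axis, kb, negative upstream), for 367 strong (red) and 6801 other (grey) summits. Both peak in the 200 bp upstream of the start, at 7.90% and 12.6%.

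Away from boundaries, the longer-range members with the highest scores included Hdac4, a class II histone deacetylase gene, with a summit of 476.4 at 76.4 kb. The median distance to the nearest coding gene among the 147 strong summits outside coding genes and over 1 kb from them was 28566 bp. Among the 2174 other summits so placed it was 32159.5 bp. In all, 105 strong summits had no protein-coding gene within 10 kb and 75 had more than a single one. Of the 186 outside coding genes, 108 had an annotated gene of another kind, such as a lncRNA or pseudogene, nearer. The counts of 105, 75 and 108 are given for strong summits only, without a comparison. By distance to gene starts, the nearest gene was the same for 263 of 367. Some mismatches came from genes without an annotated start, and their number was not counted. For the summit inside Ndrg1, for example, the nearest annotated start was that of Gsdmc3, 3075 kb away. A nearest gene is used here as a label of place and not of a target.

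Strong summits had 362 different nearest genes, of which 13 had 2 strong summits each, and no gene had 3 or more within 10 kb. Counting summits of every score, those 13 genes were nearest to between 2 and 11. Since only 5.08% of placed summits are strong, few per gene are seen in any case, and no equal draw of other summits was compared. Another summit of any score lay within 10 kb of 88 strong summits (23.5%, interval 19.5% to 28.0%) and of 21.0% of the others (adjusted p = 0.337, Fisher's exact test). Pairs of strong summits within 50 kb numbered 10, and the closest, 4040 bp apart, lay inside Rfx2, an X-box binding factor gene, with scores of 197.6 and 103.9. A pair 8.62 kb apart lay upstream of Adcyap1r1, the receptor gene for the peptide PACAP, with scores of 287.2 and 208.6. By chromosome, the strong share of summits ran from 2.94% on chromosome 17 to 8.06% on the X chromosome, where 5 of 62 were strong (interval 3.49% to 17.5%). Chromosome 6 held the most, 43 of 583 (7.38%, interval 5.52% to 9.79%).

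Islet genes were then counted among the nearest and neighbouring genes. Of all 21887 protein-coding genes, 361 (1.65%) had a strong summit inside or within 10 kb, and 362 (also 1.65%) were the nearest gene of one. By either measure the count was 456 (2.08%). Among the 176 genes of 10 lists, 2 of which held genes of other cell types, 10 had one within 10 kb (5.68%), 12 were the nearest gene (6.82%) and 15 met either measure, which is the count given for each list below. Of the same 176, 45.45% had a summit of any score within 10 kb, against 25.8% of all protein-coding genes. Several of the genes counted are long, as given below, and the part of gene length in these counts was not tested.

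Alpha cell genes were represented by 2 of 12. Irx2, an Iroquois transcription factor gene of alpha cells, was the nearest gene of the summit of score 1009 named above. Slc38a5 had a summit 8.845 kb away on the X chromosome, at 8262536, with a score of 100.5, next to the limit. Within 10 kb the count was 1 of 12, while 9 of 12 had a summit of any score there.

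Beta cell genes were represented by 2 of 15, both by summits outside the gene. Iapp, which encodes the hormone amylin, had a summit of 134.9 at 8.896 kb (chromosome 6, 142289529), which lay inside Slco1a5. Pdx1, a transcription factor gene of beta cells and the early pancreas, had a summit of 118.6 at 5.984 kb (chromosome 5, 147264113).

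Transcription factor genes of the islet were represented by 2 of 35. Myt1, a zinc finger factor gene of endocrine precursors, had a summit of 103.1 at 4.107 kb (chromosome 2, 181759225). Mlxipl, which encodes the glucose-responsive factor ChREBP, had one of 160.8 at 9.378 kb (chromosome 5, 135149146), but it lay 283 bp from a boundary of Tbl2.

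Genes of hormone processing and the secretory granule were represented by 4 of 27, of which 2 had the summit within 10 kb. Scg2, a granin gene, was nearest to a summit of 163.7 at 41.9 kb (chromosome 1, 79481887). Ptprn2, a dense-core vesicle protein gene of 792.5 kb, held one of 159.0 at 116490820 of chromosome 12. Pam, which encodes the enzyme that amidates peptide hormones, held one of 118.4 (chromosome 1, 97918758), and the prohormone convertase gene Pcsk1 was nearest to one of 108.9 at 55.5 kb (chromosome 13, 75033935).

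Genes of glucose sensing and excitability were represented by 3 of 18, of which 2 had the summit within 10 kb. Abcc8, which encodes the sulfonylurea receptor of the KATP channel, held a summit of 270.5 at 46123272 of chromosome 7, 18749 bp from the nearest boundary. Cacna1c, an L-type calcium channel gene of 610.1 kb, shared one of 536.6 (chromosome 6, 119180075) with the overlapping Dcp1b. Cacna2d1, an auxiliary calcium channel subunit gene, was nearest to one of 227.2 at 83.9 kb (chromosome 5, 15850335). Receptor genes were represented by 2 of 18, of which 1 had it within 10 kb. The somatostatin receptor gene Sstr3 held one of 101.8 (chromosome 15, 78541815), and the vasopressin receptor gene Avpr1b was nearest to one of 129.7 at 12.1 kb (chromosome 1, 131586976).

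In the other 4 lists no gene had a strong summit within 10 kb or as its nearest gene: 7 delta, PP and epsilon cell genes, 17 KLF genes, 14 acinar and duct genes and 13 liver and muscle genes. Among the KLF genes 8 had a weaker summit within 10 kb, among the acinar and duct genes 2, among the liver and muscle genes 2 and among the delta, PP and epsilon cell genes 1. No test was made between lists. At a score minimum of 200, 2 of the 176 list genes had a summit within 10 kb, Cacna1c and Abcc8 (1.14%, against 0.617% of all protein-coding genes).

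**Figure D5:**
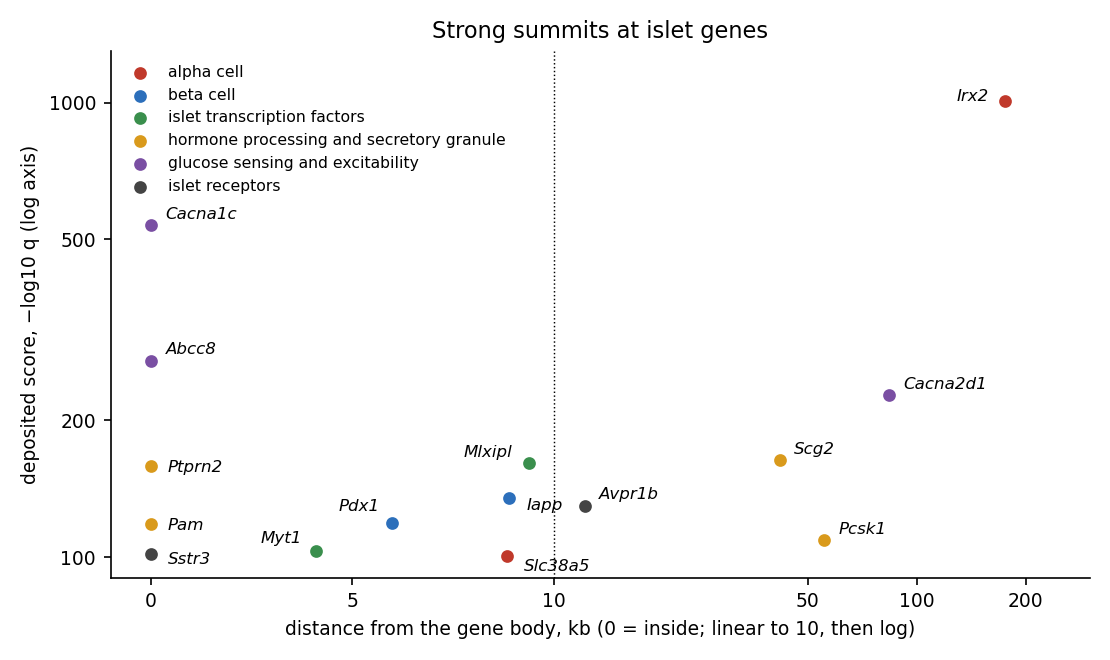
Deposited score, −log10 q (vertical axis, log scale), of strong summits against their distance from 15 islet genes (horizontal axis, kb, linear to 10 and then log, 0 inside the gene), coloured by gene list. The dotted line marks 10 kb. All points but Cacna1c, Abcc8, Cacna2d1 and Irx2 lie under a score of 200.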

How the data were processed

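The deposited list of the whole series holds 1 summit per peak and, as its 1 value column, −log10 of the q-value, which the authors got with MACS2; FastQC, Bowtie2, MACS2 and build mm10 (GRCm38) come from the submitters' processing notes. The summit scale of −log10 q is taken from how MACS2 writes such files, and the lowest value lies just above 2. Peak names carry nomodel. Versions, parameters and pooling of replicates are not given in the sources used here. No per-library counts were used, so depth is unknown.

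Samples were grouped by title. Summits were set, counting from 1, against 21887 protein-coding RefSeq genes of GRCm38.p6. The nearest gene is that with the least distance from its body, with 0 inside. Annotated starts came from the promoter table, which covers 78.9% of those genes. Chromosome 18 starts were not used here. The table has wide gaps elsewhere, and summits in them stay in the shares near starts. Examples are those inside Ywhaz on chromosome 15 (nearest start 3340.7 kb away) and Zfp395 on chromosome 14 (2347.4 kb). The effect of such gaps on these shares was not tested. The boundary class used the ends of gene bodies alone, although annotated starts had been planned as part of it. Location classes and spacing were compared by 2-sided Fisher's exact tests with Benjamini-Hochberg adjustment over 5. No tests were made on gene lists, scores or motifs. Gene starts were described without a test.

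Named genes were the nearest genes of the 25 highest summits, list genes with a strong summit within 10 kb or as nearest gene, the highest 5 per location class and 3 on either side of the limit; others were named after their values were seen. The members and lists were chosen with earlier results of these data known. The code was tested on planted positions. Alternatives changed the score minimum, distances, gene set, comparison set and merging of summits. Python 3.11.15, pandas 2.3.3, scipy 1.17.1 and matplotlib 3.10.9 were used.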

Additional observations from a re-analysis of the deposited data

How the results depend on the processing

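No paired analysis was possible because scores were deposited per summit and not per replicate, so none could be left out either. Motifs in 100 bp on either side of every summit were not run, since no genome sequence was used here. The number of strong summits was 883 at a score minimum of 50 and 146 at 200. The shortfall near gene boundaries kept its direction and its side of the threshold in all 7 alternatives. The excess outside genes at 1 to 50 kb was 2.18 points at a score minimum of 200, 4.62 with a boundary of 500 bp and 4.50 against other summits of score 10 or more, none past the threshold. The excess beyond 50 kb was 3.46 points, past it, at a score minimum of 50. The difference in neighbouring summits turned to -1.68 points within 1 kb and to -3.38 at a score minimum of 200, neither past the threshold. List genes with a strong summit numbered 5 in the gene body alone and 2 at a score minimum of 200, against 10. Of 50 counts for single lists, 36 stayed within 1.5 times and 14 did not. Among the 13 windows with a score of 200 or more, too few to rank either motif, GTTGCCA was in 38.5% and GAGTG in 30.8%. The causes were not tested. Unknown depth limits what a missing strong summit says.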

Other observations

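The genes below were named after their values were seen, from no list, so no count or test stands behind them. Cep41, a centrosomal protein gene, held a summit of 331.0, and Mks1, of the ciliary transition zone, was nearest to one of 209.8 at 12.3 kb. The start of Dync2h1, the motor of retrograde transport in cilia, lay 47 bp from a summit of 204.0 that is also inside Dcun1d5. Poc1a, a centriole gene, was nearest to one of 222.8 at 9.43 kb, and Fuz, a ciliogenesis gene, held one of 148.4. Gas8, of the motile axoneme, had one of 113.1 60 bp from a start, and Pcm1, of centriolar satellites, one of 100.9 10 bp from a boundary.

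Endocrine genes outside the lists included Ica1, an islet autoantigen gene, nearest to a summit of 487.4 at 47.5 kb. The gastrin gene Gast held one of 364.7, and Ide, which encodes an insulin-degrading enzyme, one of 253.0. Rest, the repressor of neuronal genes, was nearest to one of 296.7 at 19.5 kb, and the imprinted gene Dlk1 to one of 125.7 at 10.4 kb. Foxp1, Hdac4, Grin2a and Rybp were each nearest to 2 strong summits, with scores of 426.3 and 175.6, 476.4 and 151.0, 260.3 and 121.2, and 670.6 and 258.5. A microRNA hairpin lay within 10 kb of 10 of 375 strong summits (2.67%, 95% Wilson interval 1.455% to 4.84%) and of 151 of 7005 others (2.16%, interval 1.84% to 2.52%). The nearest to a strong summit was Mir3091, 0.195 kb from the summit at Rps21.

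A summit of 409.6 at position 98667149 of chromosome 2 lay 1035.5 kb from its nearest coding gene, Lrrc4c. The stretch around it is known in mouse sequencing data for collecting reads in many kinds of experiment, input included. No summit was removed as an artefact here, and this one counts among those over 50 kb from a coding gene. So does a summit of 122.3 at position 39843681 of chromosome 17, which lay 2673 bp from the pseudogene Rn18s-rs5. Coverage in input was not analysed for either.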
